A study of Homo sapiens with 4 samples.

Results

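The B-lineage transcription factors described here are PAX5, EBF1, SPI1 (which encodes PU.1), SPIB and POU2F2 (which encodes Oct-2), together with POU2AF1, the coactivator of Oct-2 also called OBF-1. They were taken as all 44 probes, of 15246 in the platform annotation, whose gene symbol is 1 of these 6. The cells were OCI-Ly3, an established human line from a diffuse large B-cell lymphoma with an activated B-cell profile. They carried a hairpin RNA directed at CHUK, the gene of the kinase IKKa. Each of 4 two-colour arrays set cDNA of cells given doxycycline at 20 ng/ml, which induces the hairpin, in Cy5 against cDNA of cells without doxycycline in Cy3. On 2 arrays neither channel had inhibitor, and doxycycline was given for 2 days (the 2-day array) or 3 days (the 3-day array). On the other 2 arrays both channels had MLN120b, an inhibitor of IKKb, at 12.5 uM, for 3 h with 2 days of doxycycline (the 3 h array) or for 24 h with 3 days of doxycycline (the 24 h array). No array compared doxycycline with none in cells lacking the hairpin, so the agent and the hairpin cannot be told apart.

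B-cell identity rests on a small network of factors that bind the same sets of genes. EBF1 and PAX5 commit progenitors to the B lineage, and PAX5 then holds mature cells there by activating B-cell genes and silencing those of other lineages. PU.1 and Spi-B are related ETS factors with overlapping binding sites, and Spi-B is known for its high expression in lymphomas of the activated B-cell type. Oct-2 binds the octamer of immunoglobulin promoters and recruits OBF-1, without which germinal centres do not form. IKKa and IKKb are kinases of the complex that frees NF-kB from its inhibitors, and the series title names compensation by IKKa in the classical pathway as its question.

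Promoter sequence, from 250 bases before to 50 after the start site, was found in the RefSeq table (GRCh38.p14) for 4 of the 6 genes: PAX5, EBF1, POU2F2 and SPIB. Both strands were searched for the octamer ATGCAAAT, the PU box core GAGGAA, the EBF core CCCNNGGG and the NF-kB consensus. Of 35116 promoters of this length, 1.77% held the octamer, 27.9% the PU box core, 19.1% the EBF core and 11.3% the NF-kB consensus. SPIB, whose gene mean lay below 0 on all 4 arrays, and EBF1, whose mean of 3 probes lay above 0 on all 4, are shown because these means stood on opposite sides. Both run 5′ to 3′. The SPIB window (chr19:50418688-50418987, plus strand) held a palindromic match to the NF-kB consensus that starts at base -197 from the start site. It overlapped a match to the EBF core that starts at base -202, and capitals mark the stretch covered by either match. The EBF1 window (chr5:159097907-159098206, minus strand) held none of the 4 motifs.
SPIB: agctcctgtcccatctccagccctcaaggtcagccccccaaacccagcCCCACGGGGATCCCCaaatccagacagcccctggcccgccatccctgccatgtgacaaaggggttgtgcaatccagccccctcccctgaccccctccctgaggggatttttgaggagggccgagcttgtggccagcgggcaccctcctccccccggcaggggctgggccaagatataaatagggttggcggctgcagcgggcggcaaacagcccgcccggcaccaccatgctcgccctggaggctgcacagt
EBF1: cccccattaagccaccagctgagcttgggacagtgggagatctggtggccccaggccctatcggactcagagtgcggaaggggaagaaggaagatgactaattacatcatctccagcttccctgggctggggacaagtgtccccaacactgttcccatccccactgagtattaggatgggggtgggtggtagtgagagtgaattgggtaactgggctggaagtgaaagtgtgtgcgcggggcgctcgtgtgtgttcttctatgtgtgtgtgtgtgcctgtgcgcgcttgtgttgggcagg
PAX5 and POU2F2 each held 1 PU box core, on the minus strand at bases -114 and -61. These are matches of letters and not measured binding.

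Values are log2 ratios, above 0 where cells with doxycycline were higher in the likely direction of the ratio. That direction follows the dyes in the labels and the usual order of Cy5 over Cy3, and both CHUK probes are then below 0 on all 4 arrays. Were it the other way round, every sign here would turn. All pairs of arrays correlated positively over probes (Pearson's r 0.36 to 0.72), so no array ran against the others. Doxycycline cells were in Cy5 on all 4 arrays, so a dye bias of a probe would enter each array in the same direction. Such a bias was not tested. It could also add to correlations, to shared signs and to tests against 0, and a constant one cancels only in the difference between groups. The probes of a gene with a value on all 4 arrays were averaged, and the gene mean of each group of 2 arrays was tested with limma over 3589 genes. The 2 arrays of a group differ in time, so their SD (n = 2 throughout) includes time. Separate cultures are not named in the labels, and p-values then cover the spread of these arrays alone, which may be technical. The arrays carry ratios and no levels, so whether each factor or B-cell marker was expressed could not be checked. CHUK, the target of the hairpin, had log2 ratios of -0.59 and -0.87 without and -1.30 and -1.01 with inhibitor (2 days, then 3 days).

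Of the 44 probes, 32 had a value on all 4 arrays (72.7%, against 64.2% of all probes), 9 on some and 3 on none. POU2AF1 kept 4 of 4 probes, POU2F2 12 of 14, SPI1 5 of 6, SPIB 4 of 5, PAX5 4 of 7 and EBF1 3 of 8. EBF1 is therefore the member with the smallest measured share, and 2 PAX5 probes and 1 POU2F2 probe had no value at all.

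**Figure D1:**
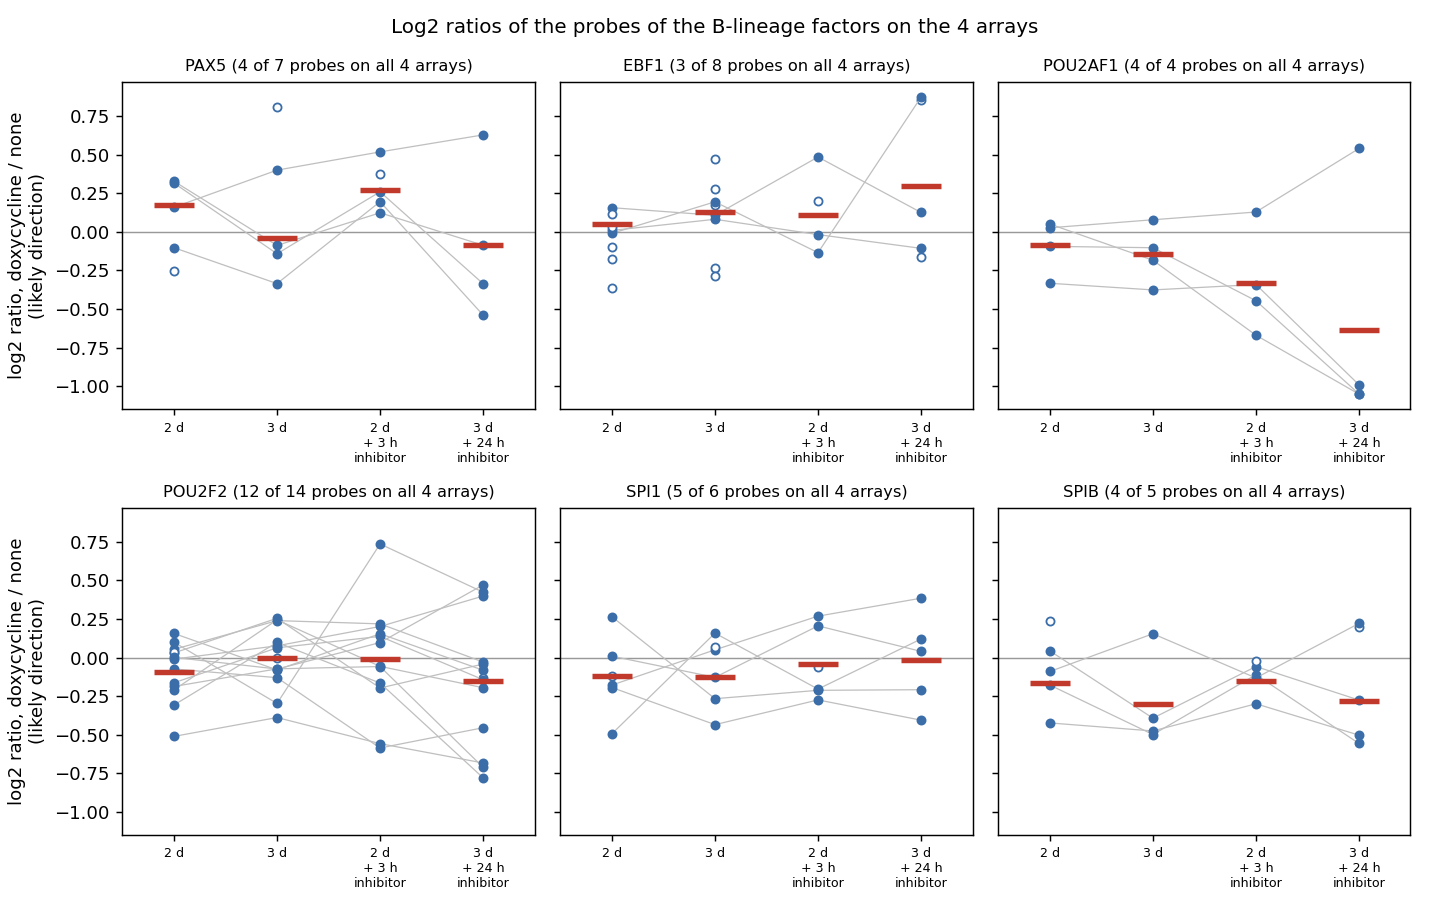
Log2 ratio (vertical axis) of every probe of the 6 genes on the 4 arrays (horizontal axis). Filled points joined by lines are probes with a value on all 4 arrays, open points are probes with values on fewer, and red bars are the means of the filled points. In POU2AF1 3 of the 4 probes lie near -1 on the 24 h array and the other lies at 0.54.

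POU2AF1 had the lowest mean of the 6 genes with inhibitor, 1.40-fold lower in the likely direction, but did not pass the test over all genes. Its log2 ratio, averaged over 4 probes, was -0.088 on the 2-day, -0.15 on the 3-day, -0.33 on the 3 h and, lowest, -0.64 on the 24 h array. Both inhibitor arrays were thus lower than both arrays without inhibitor, a separation seen in 11.2% of all genes. The mean was -0.12 ± 0.041 (SD) without inhibitor (limma adjusted p = 0.783) and -0.48 ± 0.22 with it (SE 0.12, adjusted p = 0.067). The difference of -0.37 (95% interval -0.78 to 0.045) had an adjusted p of 0.989.

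The 4 POU2AF1 probes disagreed in sign. Probe 30441_1 read 0.05, -0.18, -0.67 and -1.05 on the 2-day, 3-day, 3 h and 24 h arrays. Probe 35047_1 read -0.094, -0.10, -0.45 and -1.05 in the same order. Probe 32627_1 read -0.33, -0.38, -0.34 and -0.99. These 3 probes came within 0.06 of each other on the 24 h array, while on the 3 h array they spread from -0.34 to -0.67. Probe 32057_1 was above 0 on all 4 arrays, at 0.026, 0.078, 0.13 and 0.54, opposite to the other 3 on every array but the 2-day one, where 30441_1 was above 0 too. Fitted as single probes, the first 3 passed below 0 with inhibitor (6.27% of all probes did), with means of -0.86, -0.75 and -0.67 (limma adjusted p = 0.00978, 0.0217 and 0.0367), and probe 32057_1, at 0.33, did not (adjusted p = 0.173). With the median of the probes in place of the mean POU2AF1 passed at -0.71 (adjusted p = 0.0483). It also passed with the doxycycline day as a block (-0.48, adjusted p = 0.0209), a fit that called 25.3% of all genes. The value was -0.64 without the 3 h array and -0.33 without the 24 h array, each then resting on 1 inhibitor array. After the arrays were scaled to equal spread POU2AF1 with inhibitor was -0.39 (limma adjusted p = 0.0688), and its difference was -0.26.

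POU2F2, whose product is the DNA-binding partner of OBF-1, stayed near 0 as a gene while its probes diverged. The mean of 12 probes was -0.093 on the 2-day, -0.0057 on the 3-day, -0.0064 on the 3 h and then -0.15 on the 24 h array. The groups overlapped, and the group means were -0.05 ± 0.062 without and -0.079 ± 0.10 with inhibitor (limma adjusted p = 0.916 and 0.678). On the 24 h array its probes ran from -0.78 to 0.47, with 9 of 12 below 0. Probe 33832_1 was below 0 throughout, at -0.51, -0.39, -0.56 and -0.68 in array order. Probe 29928_1 went the other way with inhibitor, from 0.099 and -0.30 to 0.73 and 0.42. As single probes with inhibitor, 33832_1 (-0.62, limma adjusted p = 0.0217) and 24549_1 (-0.52, 0.04) passed below 0 and 29928_1 (0.58, 0.0438) above it.

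SPIB was below 0 on all 4 arrays and had the lowest mean of the 6 genes without inhibitor. Its 4 probes averaged -0.16 on the 2-day, -0.30 on the 3-day, -0.15 on the 3 h and, at 24 h, -0.28. The arrays of 3 days were lower than those of 2 days, by 0.14 without and 0.13 with inhibitor, and the groups overlapped. The mean was -0.23 ± 0.10 without (limma adjusted p = 0.496) and -0.21 ± 0.091 with inhibitor (adjusted p = 0.264). The difference between them was 0.018 (95% interval -0.36 to 0.40). Probe 19286_1 was the steadiest, at -0.42, -0.48, -0.30 and -0.50, and probe 16678_1 was also below 0 on every array. Of the 4 probes only 30237_1 rose from 2 to 3 days, from -0.09 to 0.15 without and -0.13 to 0.22 with inhibitor. Probe 24340_1, left out for lack of a 3-day value, read 0.24, -0.02 and 0.20 on the 2-day, 3 h and 24 h arrays. With it in the mean, SPIB was -0.082, -0.12 and -0.18 on those arrays. The step with inhibitor was then -0.059.

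SPI1, the relative of SPIB, lay near 0 as a gene. It averaged -0.12 on both arrays without inhibitor and, with it, -0.043 at 3 h and -0.014 at 24 h. Both inhibitor arrays were above both arrays without it, as in 19.4% of all genes, and the difference of 0.093 (95% interval -0.27 to 0.46, limma adjusted p = 0.999) did not pass. Probe 30047_1 was below 0 on all 4 arrays (-0.43 to -0.19), whereas probe 17164_1 read 0.27 and 0.38 with inhibitor. Neither passed as a single probe (limma adjusted p = 0.145 and 0.158 with inhibitor).

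PAX5 lay near 0 in both groups, and its course without inhibitor depended on 1 probe. Its 4 probes with a value on all 4 arrays averaged 0.17 on the 2-day and 0.27 on the 3 h array, both of 2 days of doxycycline. On the arrays of 3 days they averaged -0.042 without and -0.084 with 24 h of inhibitor. For these 4 probes the step from 2 to 3 days was thus -0.22 without and -0.36 with inhibitor, with 1 array per time point and no test of it, and on the inhibitor arrays the inhibitor time changed too. Probes 35316_1, 30371_1 and 31153_1 shared that step in both groups, and probe 34096_1 did not, at 0.16, 0.40, 0.52 and 0.63. Probe 31928_1, left out for lack of a 24 h value, went from -0.26 on the 2-day to 0.81 on the 3-day array and read 0.37 on the 3 h array. With it in the mean, PAX5 was 0.088 on the 2-day and 0.13 on the 3-day array. The step without inhibitor thus turned to 0.04. Lacking a 24 h value, this probe gives no step with inhibitor. Probe 34096_1 passed above 0 with inhibitor as a single probe (mean 0.57, limma adjusted p = 0.0325), while the gene means, 0.067 ± 0.15 without and 0.095 ± 0.25 with inhibitor, did not (0.903 and 0.674).

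EBF1, measured on all 4 arrays by 3 of its 8 probes, averaged 0.052 and 0.13 without inhibitor and 0.11 and 0.30 with 3 h and 24 h of it, above 0 throughout. The mean was 0.089 ± 0.054 without and 0.20 ± 0.13 with inhibitor (limma adjusted p = 0.828 and 0.289), and the groups overlapped. The 24 h value rested on probe 30286_1 at 0.87, since the other 2 probes read 0.13 and -0.11. Of the 5 probes left out of the mean, 24647_1, 26725_1 and 30415_1 were below 0 on the 2-day array, at -0.096, -0.18 and -0.36, and 30718_1 and 32096_1 above it, at 0.031 and 0.11. On the 24 h array 24647_1 read 0.86 and 26725_1 -0.16, and the other 3 had no value. With 1 measured array per group enough, the mean drew on 6 probes. It was -0.014 on the 2-day array, which turns its sign, and 0.099, 0.13 and 0.32 on the 3-day, 3 h and 24 h arrays. Probes 24647_1 and 26725_1 lacked a 3 h value and 30718_1 lacked a 24 h value. The inhibitor means thus rest on fewer and different probes, and steps between arrays partly reflect which probes were measured.

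**Figure D2:**
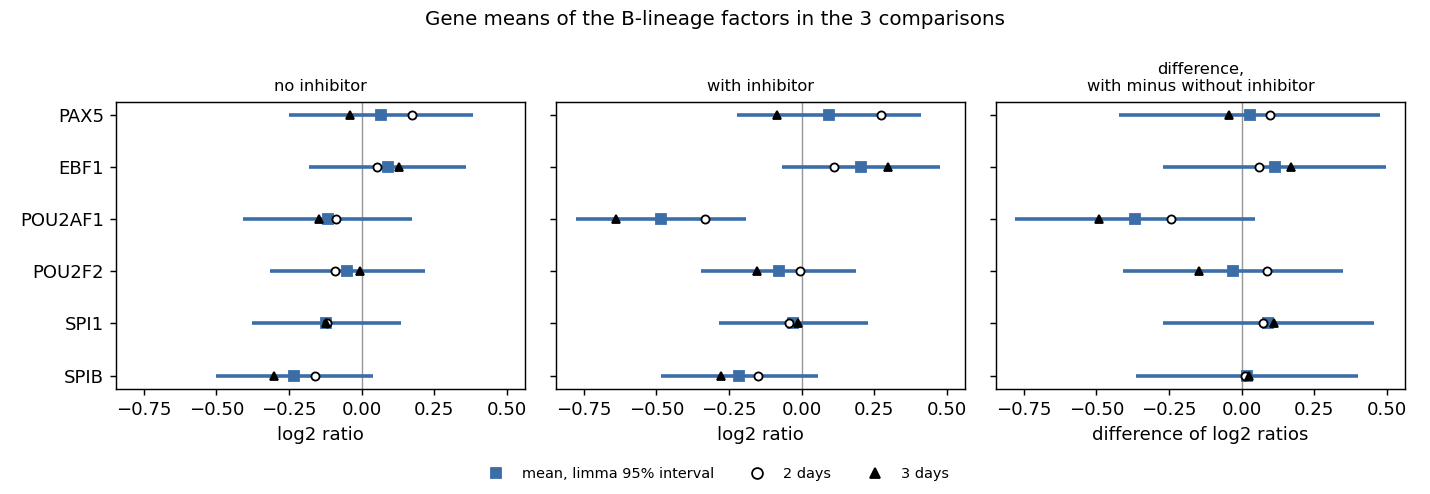
Mean log2 ratio of each gene without inhibitor, with inhibitor and their difference (horizontal axes), with limma's 95% interval as a line, the 2-day value as an open circle and the 3-day value as a triangle. The interval of POU2AF1 with inhibitor, -0.78 to -0.19, is the only 1 of the 18 drawn that does not reach 0, before adjustment over genes.

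As a set, the 6 genes gave 0 calls in each comparison. Without inhibitor limma called 0 of 6, against 0% of all genes, and 0 of 6 had an unadjusted p under 0.05 (11.1% of all genes). With inhibitor it called 0 of 6, against 4.57%, and 1 of 6, POU2AF1, had an unadjusted p under 0.05 (28.3%). For the difference it called 0 of 6, against 0%, with 0 of 6 at an unadjusted p under 0.05 (4.82%). The median of the 6 means was -0.083 without and -0.054 with inhibitor, beside -0.028 and -0.0097 over all genes. POU2AF1, POU2F2, SPI1 and SPIB were below 0 on all 4 arrays (25.8% of all genes were) and EBF1 was above 0 on all 4 (15.5%), the first 4 also when 1 measured array per group was enough for a probe, and EBF1 not. None of the 6 was beyond 1.5-fold on both arrays of a group, a size passed downward by 0.919% of genes without and 2.40% with inhibitor, and upward by 0% and 0.836%.

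Single probes gave calls where the gene means did not. The arrays differed in width. The median absolute deviation over all probes was 0.128 (2-day), 0.215 (3-day), 0.193 (3 h) and 0.286 (24 h array). Of the 32 probes tested, 7 passed with inhibitor, 5 below and 2 above 0, against 10.0% of all 9788 probes (6.27% below and 3.73% above). Of the 5 below 0, 3 belonged to POU2AF1 and 2 to POU2F2, and probes of 1 gene share their target and are not independent. Without inhibitor 0 of 32 passed (0.245% of all probes), and for the difference 0 (0%). On the 24 h array 6 of 36 probes with a value were lower beyond 1.5-fold (9.21% of all probes), 3 of POU2AF1 and 3 of POU2F2. Another 3 were higher beyond it (12.1%), 1 of PAX5 and 2 of EBF1. On the 3 h array 2 were lower and 1 higher (4.67% and 3.40%), on the 3-day array 0 were lower and 1, of PAX5, higher (5.07% and 4.42%), and on the 2-day array 0 of 41 were beyond 1.5-fold either way (2.19% and 0.633%).

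Probes of these genes disagreed more than those of the median gene in 5 of the 6 on the 2-day and the 3-day array, in 4 at 3 h and in 6 at 24 h of inhibitor. Each gene had probes of both signs on the 2-day and the 24 h array, as did 5 of the 6 on the 3-day and 4 on the 3 h array. On the 24 h array the SD between the probes of a gene was 0.78 for POU2AF1, higher than in 97.7% of the 767 genes with at least 3 such probes, whose median was 0.23. It was 0.51 for both EBF1 and PAX5, 0.44 for POU2F2, 0.35 for SPIB and 0.30 for SPI1, all above that median. On the 2-day array the 6 genes ranged from 0.091 (EBF1) to 0.28 (SPI1), around a median of 0.15. Whether discordant probes report other transcripts of a gene was not tested.

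**Figure D3:**
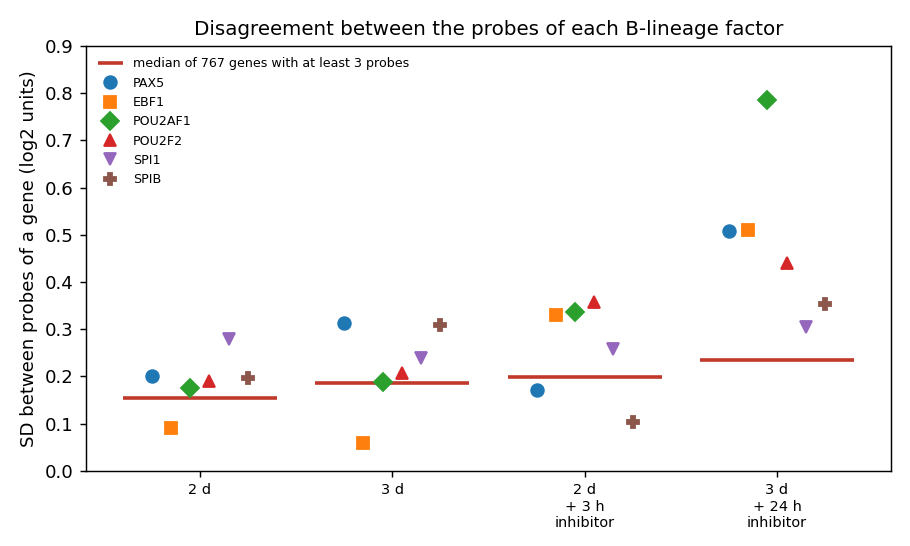
SD of the log2 ratios between the probes of each gene (vertical axis) on the 4 arrays (horizontal axis), for probes with a value on all 4. The red line is the median over 767 genes with at least 3 such probes. All 6 genes lie above the line on the 24 h array, with POU2AF1 at 0.78.

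Other transcription regulators of B cells, a list chosen with earlier results of these data known, gave calls where the 6 factors gave none. Of 30 measured, 4 fell and 2 rose with inhibitor (3.04% and 1.53% of all genes). Without it 0 passed, and 8 had an unadjusted p under 0.05 (11.1% of all genes). LEF1, a WNT-pathway factor of early B cells, fell to -0.93 ± 0.094 (limma adjusted p = 0.0305). IRF4, on which lymphomas of this type depend, fell to -0.70 ± 0.23 (0.0443). IKZF1, which encodes Ikaros, fell to -0.63 ± 0.15 (0.0392). ID2, an inhibitor of E proteins, fell to -0.62 ± 0.033 (0.0479), while its relative ID3 rose to 0.76 ± 0.16 (0.0253). KLF13 rose to 0.52 ± 0.036 (0.0469). LEF1, IRF4 and IKZF1 were already at -0.82, -0.47 and -0.44 without inhibitor (unadjusted p = 0.00139, 0.0137 and 0.0087), against -0.21 for ID2, 0.14 for ID3 and 0.065 for KLF13. The difference between the groups was not called for any of the 30 (limma adjusted p of the 6 genes 0.989 to 0.999). Of the 30, 2 had an unadjusted p under 0.05 for it (4.82% of all genes). The list median was -0.11 with inhibitor, beside -0.0097 over all genes. LEF1 kept its call in each refit of the gene means that held all 4 arrays. The other 5 lost theirs in some fits with an array left out, in which 1 group holds 1 array. ID3 became 0.34 (adjusted p = 0.172) when 1 measured array per group was enough for a probe, and IKZF1 -0.32 (0.146) with the median of its probes.

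**Figure D4:**
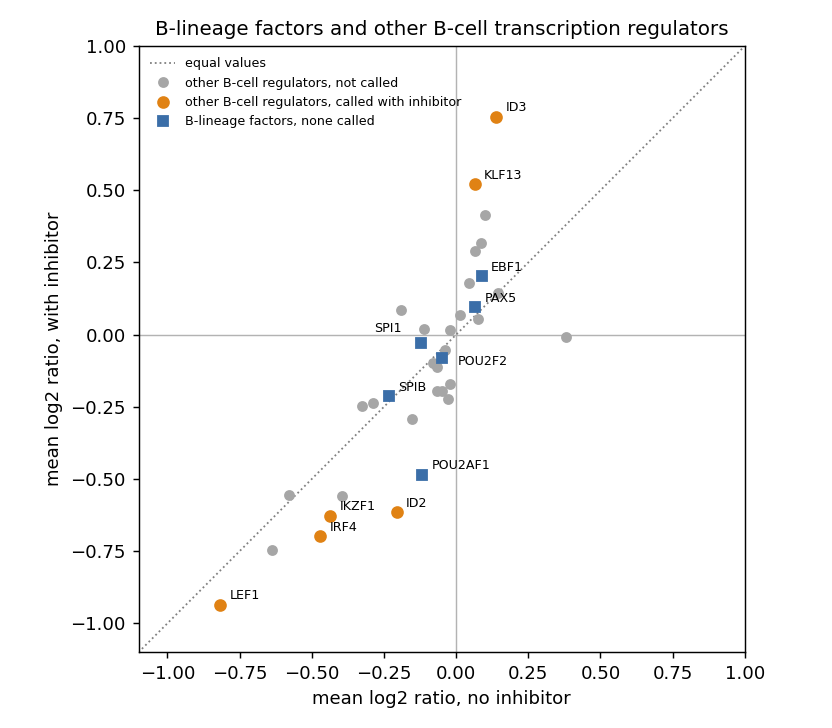
Mean log2 ratio with inhibitor (vertical axis) against the mean without (horizontal axis) for the 6 B-lineage factors (squares) and 30 other B-cell transcription regulators (circles, orange where called with inhibitor). POU2AF1, at -0.12 and -0.48, lies below the dotted line of equal values, and the other 5 factors lie within 0.12 of it.

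Of 28 measured genes described as activated by these factors, 2 fell with inhibitor and 0 rose (7.14% and 0%, against 3.04% and 1.53% of all genes). They were LEF1 and TNFRSF13C, the BAFF receptor (-0.83 ± 0.13, limma adjusted p = 0.0209, 1 probe), which was at -0.47 without inhibitor, with a difference of -0.36 (adjusted p = 0.989). The median of the 28 was -0.092 with inhibitor. Of 13 measured genes described as repressed by PAX5, 0 passed (3 had an unadjusted p under 0.05), with a median of -0.0097. Those farthest from 0 with inhibitor were CSF1R, the receptor of a macrophage growth factor, at 0.61 ± 0.45 (limma adjusted p = 0.0782, 1 probe), and JCHAIN, the joining chain of secreted antibody, at 0.58 ± 0.33 (0.0607). Of 9 measured relatives of the factors 0 passed (3 at an unadjusted p under 0.05), and PAX3 (-0.41) and FLI1 (-0.32) were farthest from 0.

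Markers of cell types were set beside these values. B-cell markers gave 0 calls of 11 with inhibitor (1 at an unadjusted p under 0.05) and a median of -0.12, 9 of them below 0 (51.6% of all genes were) and 8 without inhibitor (55.9%), with HLA-DRA at 0.29 and CD37 at -0.28 farthest from 0. Plasma cell markers gave 1 call of 9 with inhibitor, IRF4, which was below 0 (-0.70), and had a median of -0.0097. Of the 3 at an unadjusted p under 0.05, IRF4 alone was below 0. T cell markers had means over the 2 arrays above 0 in 12 of 12 with inhibitor (48.4% of all genes) and 10 of 12 without (44.1%). The medians were 0.13 and 0.061. The 2 inhibitor arrays differed in sign for some of these markers, with values down to -0.26 on the 3 h array. T cell markers gave 1 call with inhibitor, NKG7 (0.55 ± 0.012, limma adjusted p = 0.0443, 1 probe). Myeloid markers had a median of 0.15 over 7 genes and 0 calls (2 at an unadjusted p under 0.05), with CSF1R farthest above and ITGAM (-0.31) farthest below 0. All arrays were of OCI-Ly3 cells, so these values describe marker genes in that line and not shares of other cell types.

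The genes most like each factor were those with the smallest Euclidean distance between their 4 log2 ratios and the factor's, among 3583 others. For POU2AF1 they were FGFBP2 (distance 0.073) and NAA15 (0.082), and for SPIB they were BLNK, an adaptor of B-cell receptor signalling (0.073), and NUDT1 (0.075). ULBP2 (0.039) and PM20D2 (0.057) were nearest to PAX5, DNASE1L3 (0.043) and ZFAND4 (0.069) to EBF1, COPS2 (0.066) and MFHAS1 (0.071) to POU2F2, and CSNK1G2 (0.041) and GBE1 (0.05) to SPI1. Among the factors themselves POU2F2 and SPI1 were closest (0.19), and EBF1 and POU2AF1 farthest apart (1.08). Distances over 4 arrays describe these arrays.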

How the data were processed

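Expression was measured on 4 two-colour arrays of OCI-Ly3 cells. The authors deposited 1 log ratio per probe and array, taken as log2. Its base and direction are read from the range of values and the dyes, the array medians (-0.007 to 0) point to centring by the authors, and how background, normalization and weak spots were handled is not given in the labels or the file. Scanner signals were not used here, so signal over background is unknown, and precision is limited by having 4 arrays.

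The platform annotation names 1 gene for 10169 of the 15246 probes, several for 4 and none for 5073, and 10128 matched the RefSeq gene table (GRCh38.p14) for current names. The 6796 probes with 1 gene and a value on all 4 arrays were averaged to 3589 genes. One model was fitted with limma 3.58.1 (R 4.3.3) with a mean for each group of 2 arrays (2 residual degrees of freedom, prior 4.98). The calling threshold was a two-sided adjusted p (Benjamini-Hochberg) under 0.05, and single probes were fitted likewise over 9788 probes. The fit was tested on simulated data. Named genes are the 6 factors, CHUK, called members of the other lists (or the 2 farthest from 0 with inhibitor where none passed) and the 2 nearest profiles of each factor. The factors and lists were chosen with earlier results of these data known. Alternatives were the filter on missing values, the summary of probes, centring, scale, the doxycycline day as a block, a robust prior, an adjusted p under 0.10, a 2-fold rule and each array left out.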

Additional observations from a re-analysis of the deposited data

Results flagged for a closer look

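Among the 32 tested probes of the 6 factors, 2 lay above 0 on both arrays without inhibitor and below 0 on both with it. The share of all probes that did so was not counted, so this number has no background beside it. EBF1 probe 30355_1 differed by -0.11 (limma adjusted p = 0.999 over single probes), with values as near 0 as 0.009 (2-day array) and -0.018 (3 h array). POU2F2 probe 24660_1 differed by -0.26 (adjusted p = 0.999). No gene mean of the 6 changed side in this way.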

How the results depend on the processing

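With every array kept, the count of B-lineage factors called with inhibitor was 0 in the main fit. That count became 1 (POU2AF1) with the median of probes, with the doxycycline day as a block and at an adjusted p under 0.10. It became 3 (PAX5, POU2AF1 and POU2F2) on single probes, counting genes with at least 1 called probe. With an array left out, 1 group holds 1 array and the spread comes from the other group alone. Adjusted p-values of such fits do not measure the spread of the group left with 1 array. Calls with inhibitor were both gained and lost in such fits, so that count is given only with every array kept. The counts without inhibitor and for the difference stayed at 0 under the alternatives run, as did the 2-fold rule. Of 198 refitted values of the 6 genes, 178 kept their direction and their side of the threshold. The robust prior and the day as a block leave every mean unchanged. So does, for a group mean, leaving out an array of the other group. Those values could not change direction. PAX5 with inhibitor became -0.010 as the median of the means of its single probes. The difference of PAX5 became -0.0035 when 1 measured array per group was enough, -0.053 with the median of probes and -0.0045 after scaling to equal spread. As the median of its single-probe differences it became -0.027. The difference of EBF1 became -0.0045 with the median of probes, and that of POU2F2 0.019 after scaling. With arrays left out, PAX5 ran from -0.042 to 0.17 without and from -0.084 to 0.27 with inhibitor. Differences then ran from -0.15 to 0.21 for PAX5, -0.10 to 0.043 for POU2F2 and -0.052 to 0.089 for SPIB. TNFRSF13C and NKG7 lost their calls in some fits with an array left out. ID2, ID3, IKZF1, IRF4 and KLF13 lost theirs when 1 measured array per group was enough (limma adjusted p 0.0508 to 0.172), with KLF13 at 0.35. ID2, KLF13 and NKG7 did so after scaling (0.057 to 0.06), ID2 after centring (0.0505) and IKZF1 with the median of probes (0.146). The causes were not tested.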
